A study of Mus musculus with 4 samples.

Results

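The light chain genes measured here were 1 kappa gene, *Igkc*, and 6 lambda genes, *Iglc1*, *Iglc2*, *Iglc3*, *Iglv1*, *Iglv2*, and *Iglv3*. They were taken by symbol from a table of 55401 genes, so that 7 of 55401 genes are described, and 7 of these 7 had enough reads to pass the expression filter. RNA came from CD45+ cells, a gate that takes all leukocytes, sorted from the dura mater of wild-type male C57BL/6J mice. At 4 wk of age, the mice had received a single injection of an AAV9 vector into the cisterna magna, a CSF space below the cerebellum. AAV-mVEGF-C carried full-length mouse VEGF-C, the growth factor of lymphatic vessels. AAV-CTRL carried domains 4–7 of VEGFR3 fused to an immunoglobulin tail, a soluble protein that does not bind VEGF-C, so that both groups were exposed to vector and to a secreted product. Each group had 2 libraries, and each library was a pool of 10 to 12 mice, so that the spread between libraries is a spread between pools and not between single animals. The interval from injection to harvest is not stated for these pools.

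An antibody is built of heavy chains and light chains, and each B cell uses a light chain of either the kappa or the lambda type. Kappa is usually rearranged before lambda, and a cell whose kappa loci fail to give a usable chain can go on to lambda. Most serum antibody of the mouse carries kappa, which draws on a large family of variable genes (*Igkv*) and 1 constant gene, *Igkc*. The lambda locus of laboratory mice is small and has arisen by duplication: *Iglv2* and *Iglv3* lie upstream and join mainly to *Iglc2*, whereas *Iglv1* lies between the duplicated blocks and joins to *Iglc3* or *Iglc1*. Antibody-secreting cells hold far more light chain RNA than resting B cells do, and in bulk RNA a larger number of such cells and more RNA per cell cannot be told apart.

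On GRCm38 with the GENCODE M21 annotation, *Igkc* (ENSMUSG00000076609.2) is a single exon on the plus strand at chr6:70726435-70726966. The lambda genes lie on the minus strand of chromosome 16, in the order of transcription *Iglv2* (ENSMUSG00000076940.3, chr16:19260401-19260859), *Iglv3* (ENSMUSG00000076939.2, chr16:19241207-19241690), *Iglc2* (ENSMUSG00000076937.3, chr16:19198396-19200351), *Iglv1* (ENSMUSG00000076934.2, chr16:19085017-19085500), *Iglc3* (ENSMUSG00000105547.1, chr16:19065230-19065681), and *Iglc1* (ENSMUSG00000105906.1, chr16:19061618-19062071). From the start of *Iglv2*, *Iglc2* began after 60.5 kb, *Iglv1* after 175 kb, and *Iglc1* after 199 kb. The distance that separates *Iglv2* from *Iglv1* is therefore much longer than that from *Iglv1* to the constant genes it joins.

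**Figure D1:**
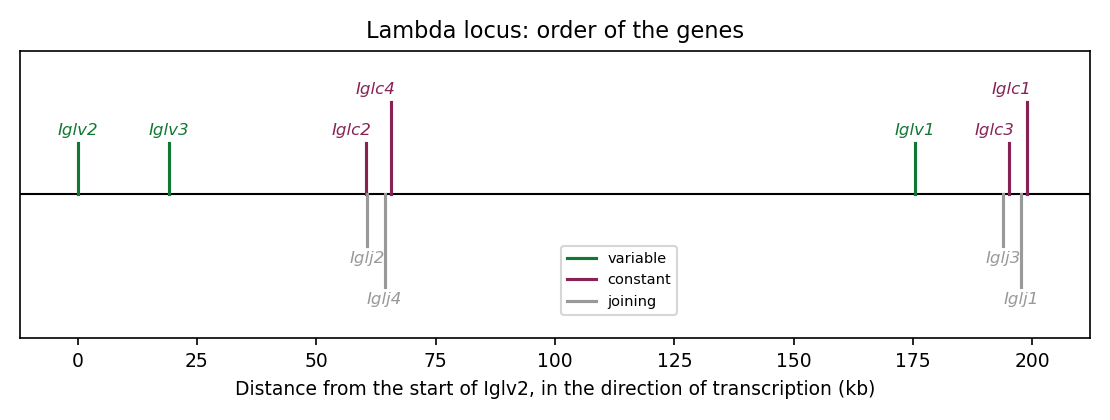
Order of the lambda genes along the locus. The x axis is the distance from the start of *Iglv2* in kb, in the direction of transcription, and each line marks the start of a variable, constant, or joining gene. *Iglv2* and *Iglv3* stand ahead of *Iglc2*, and *Iglv1* stands ahead of *Iglc3* and *Iglc1*.

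How far reads could tell these genes apart depends on their sequences. The first 120 coding bases of the constant genes are shown 5′ to 3′, with capitals for bases of *Iglc1* and *Iglc3* that differ from *Iglc2*, which is the reference among the lambda genes. *Igkc* is shown beside them in lower case, without marks. The windows are chr6:70726435-70726554 on the plus strand and, on the minus strand, chr16:19061952-19062071, chr16:19198733-19198852, and chr16:19065562-19065681.
Igkc: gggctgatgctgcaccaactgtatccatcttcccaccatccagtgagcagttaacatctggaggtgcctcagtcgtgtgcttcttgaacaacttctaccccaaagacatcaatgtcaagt
Iglc1: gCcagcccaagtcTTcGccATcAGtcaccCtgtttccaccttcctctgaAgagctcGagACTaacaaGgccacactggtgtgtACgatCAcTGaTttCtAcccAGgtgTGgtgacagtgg
Iglc2: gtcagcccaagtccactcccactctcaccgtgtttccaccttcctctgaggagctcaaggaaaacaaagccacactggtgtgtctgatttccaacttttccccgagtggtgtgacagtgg
Iglc3: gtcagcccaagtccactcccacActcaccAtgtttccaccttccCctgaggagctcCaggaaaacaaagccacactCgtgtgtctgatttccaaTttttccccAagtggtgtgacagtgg

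In this window *Iglc1* differed from *Iglc2* at 28 bases, and *Iglc3* differed from *Iglc2* at 7 bases. Over the aligned coding sequence, *Iglc2* and *Iglc3* were identical at 303 of 314 bases (96.5%), whereas *Iglc1* matched *Iglc2* at 74.8% and *Iglc3* at 75.4%. *Igkc* and *Iglc1* matched at 56.5%. No stretch of 100 bases of *Igkc*, *Iglc1*, *Iglc2*, or *Iglc3* occurred in another annotated transcript, although *Iglc2* and *Iglc3* shared a run of 79 identical bases. A read of 100 bases would therefore meet at least 1 base that differs between them, and the length of the reads after trimming is not given in the sources used here.

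The last 120 coding bases of the lambda variable genes, which end at the joint with a joining gene, are shown in the same way, with capitals for bases of *Iglv2* that differ from *Iglv1*. All lie on the minus strand, at chr16:19085017-19085136, chr16:19260401-19260520, and chr16:19241207-19241326.
Iglv1: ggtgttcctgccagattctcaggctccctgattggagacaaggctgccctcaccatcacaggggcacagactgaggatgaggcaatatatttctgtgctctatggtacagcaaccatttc
Iglv2: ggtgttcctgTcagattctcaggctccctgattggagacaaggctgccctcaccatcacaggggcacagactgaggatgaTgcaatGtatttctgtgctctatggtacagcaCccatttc
Iglv3: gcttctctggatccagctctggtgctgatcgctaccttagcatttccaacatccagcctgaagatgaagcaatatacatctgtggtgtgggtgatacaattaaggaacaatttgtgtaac

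*Iglv2* differed from *Iglv1* at 4 bases of this window, and the whole coding sequences were identical at 340 of 351 bases (96.9%), with a run of 104 shared bases. Of the 100-base stretches, 5 of 292 in *Iglv1* and 5 of 267 in *Iglv2* occurred in the other gene. *Iglv3* stood far from both, at 56.1% identity to *Iglv1* and 55.6% to *Iglv2*. The genomic copy is only the start of each transcript, since rearrangement and mutation in B cells change the sequence near the joint, and the deposited values do not show which copies were rearranged.

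The reads assigned to genes ranged from 32520709 to 46409700 per library. AAV-CTRL 1, the deepest library, had the fewest genes with a read, 20993 against 29230 to 37535 in the others, and results that rest on one library are named as such. TPM values, which scale for gene length, are used where genes are compared with each other. CPM values, reads scaled to library size with the TMM method, are used where a gene is compared between groups. *Ptprc*, the gene for CD45, was at 215 and 211 TPM in the controls and at 200 and 191 TPM with AAV-mVEGF-C. The 3 leukocyte markers, *Ptprc* included, summed to 964 and 931 TPM in the controls and to 809 and 900 TPM with AAV-mVEGF-C, and both measures were lower without overlap. The 4 neutrophil markers summed to between 9814 and 20682 TPM, so that B lineage RNA was read within a mixed leukocyte sample. The summed markers of 4 other cell types also differed between the groups without overlap. The 3 erythroid markers summed to 81.5 and 121 TPM in the controls, but to 17.5 and 34.7 TPM with AAV-mVEGF-C. The 4 fibroblast markers summed to 80.6 and 136 TPM in the controls, but to 41.7 and 59.9 TPM with AAV-mVEGF-C. The 4 endothelial markers summed to 23.4 and 20.5 TPM in the controls, but to 13.3 and 15.6 TPM with AAV-mVEGF-C. These 3 sets were thus lower with AAV-mVEGF-C. The sum of the 4 T cell markers was higher, at 107 and 123 TPM in the controls and at 148 and 141 TPM with AAV-mVEGF-C. *Cd3d*, 1 of these 4, overlapped, at 9.96 and 8.71 TPM in the controls and at 9.05 TPM in both AAV-mVEGF-C pools. None of these markers was at 0 in a library, and the part of these cell types in the light chain differences was not tested.

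*Igkc*, the constant region shared by every kappa chain, was the most abundant of the 7 genes in every library. Its level was 1694 TPM in AAV-CTRL 1, 2539 TPM in AAV-CTRL 2, 5042 TPM in AAV-mVEGF-C 1, and 5099 TPM in AAV-mVEGF-C 2. Both AAV-mVEGF-C pools lay above both controls, and they differed from each other far less than the controls did. The group means were 2117 ± 598 TPM and 5071 ± 40.6 TPM (SD, n = 2 pools each), a fold of 2.40. In rank by TPM among all genes, *Igkc* stood at 43 and 31 in the controls and at 19 and 17 with AAV-mVEGF-C.

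*Iglc1*, the constant region of lambda 1 chains, was at 91.1 and 118 TPM in AAV-CTRL 1 and 2, and at 141 and 248 TPM in AAV-mVEGF-C 1 and 2. Both treated pools were again above both controls, with AAV-mVEGF-C 2 well above AAV-mVEGF-C 1. *Iglc2*, the constant region of lambda 2 chains, was at 50.3 and 130 TPM in AAV-CTRL 1 and 2, and at 97.5 and 80.8 TPM in AAV-mVEGF-C 1 and 2. Both treated pools lay between the controls, so the groups overlapped. *Iglc3*, the constant region of lambda 3 chains, was at 23.2 and 86.8 TPM in AAV-CTRL 1 and 2, and at 68.8 and 106 TPM in AAV-mVEGF-C 1 and 2. Here AAV-CTRL 1 was low and the other pools overlapped.

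*Iglv1*, the variable gene that joins to *Iglc1* and *Iglc3*, was at 45.4 and 72.9 TPM in AAV-CTRL 1 and 2, and at 95.7 and 154 TPM in AAV-mVEGF-C 1 and 2. Its groups did not overlap, and its order of libraries was that of *Iglc1*. *Iglv2* was at 14.8 and 52.7 TPM in AAV-CTRL 1 and 2, and at 23.6 and 22.2 TPM in AAV-mVEGF-C 1 and 2. As for *Iglc2*, AAV-CTRL 1 was lowest and AAV-CTRL 2 highest. *Iglv3*, the least abundant of the 7 genes, was at 8.56 and 12.6 TPM in AAV-CTRL 1 and 2, and at 22.7 and 7.26 TPM in AAV-mVEGF-C 1 and 2. The AAV-mVEGF-C pools were thus the highest and the lowest for this gene, which rested on 67 to 275 reads per library.

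**Figure D2:**
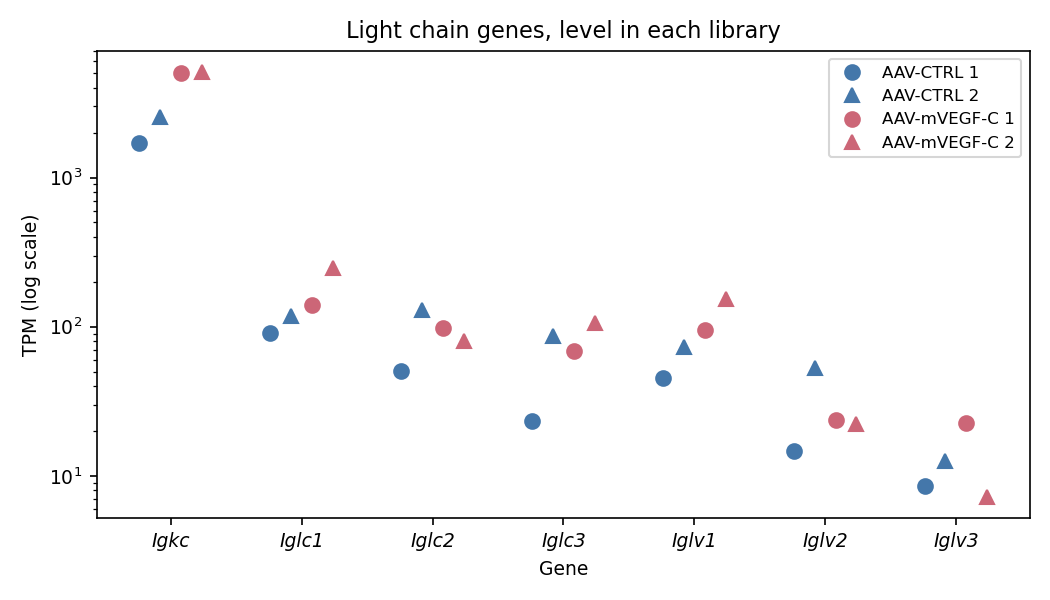
Level of each light chain gene in each library, in TPM on a log scale. Points are the 4 pools, with colour for the group and shape for the replicate number. *Igkc* is at 1694 to 5099 TPM and every lambda gene is below 250 TPM, and *Igkc*, *Iglc1*, and *Iglv1* are the genes whose groups do not overlap.

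The order of the genes by TPM was stable at its ends and not in the middle. *Igkc* was first, *Iglv2* sixth, and *Iglv3* last in all 4 libraries. *Iglc1* was second in 3 libraries, and *Iglc2* was ahead of it in AAV-CTRL 2, at 130 against 118 TPM. *Iglc2*, *Iglc3*, and *Iglv1* changed places among themselves between libraries, and their ranges overlapped. The length used for *Iglc2* may differ from that of its neighbours, since the annotation gives it a second transcript with an added exon that spans *Iglj2*, so its place against *Iglc1* is uncertain. An antisense gene, *2010309G21Rik*, overlaps *Iglc1*, *Iglc3*, and *Iglv1*, with 3 to 10 reads per library, and *Gm30211*, a lincRNA on the strand of *Igkc*, had 104 to 304 reads.

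In edgeR's quasi-likelihood test across the 19806 genes that passed the filter, 0 genes had an adjusted p under 0.05 (0% of the genes tested), and so 0 of the 7 light chain genes did. At an unadjusted p under 0.05 there were 523 genes (2.64%), and 289 of these were higher with AAV-mVEGF-C (1.46% of the genes tested). *Igkc*, *Iglc1*, and *Iglv1* were 3 of these 289. DESeq2 gave 72 of 19038 genes an adjusted p under 0.05 (0.378%), and *Igkc*, *Iglc1*, and *Iglv1* were again among them. In CPM, these 3 genes were also those with both AAV-mVEGF-C pools above both controls, a pattern seen in 16.8% of all genes tested. The opposite pattern was seen in 15.2% of all genes and in 0 of the 7.

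For *Igkc*, the CPM were 782 and 1164 in AAV-CTRL 1 and 2, against 2760 and 2696 in AAV-mVEGF-C 1 and 2. The log2 fold change by edgeR was 1.49 (SE 0.23, unadjusted p = 0.000609, adjusted p = 0.548), and *Igkc* stood at rank 22 of all genes by p. By DESeq2 the adjusted p was 1.79e-08 with a log2 fold change of 1.49. For *Iglc1*, with 31.7, 41.7, 60.1, and 101 CPM in the same order of libraries, edgeR gave 1.13 (SE 0.29, unadjusted p = 0.00727, adjusted p = 0.999) and DESeq2 an adjusted p of 0.0383. For *Iglv1*, with 11.6, 19.2, 31.0, and 46.9 CPM, edgeR gave 1.34 (SE 0.32, unadjusted p = 0.00575, adjusted p = 0.999) and DESeq2 an adjusted p of 0.0284. The tools therefore gave nearly the same fold changes and opposite calls for these 3 genes.

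The other 4 lambda genes had fold changes less than 2 standard errors from 0. *Iglc3* was at a log2 fold change of 0.92 (SE 0.58, edgeR adjusted p = 0.999), and *Iglv3* at 0.81 (SE 0.63). *Iglc2* was at 0.15 (SE 0.38) and *Iglv2* at −0.28 (SE 0.59), the pair for which AAV-CTRL 2 was the highest library. Without AAV-CTRL 2, *Iglc2* was at 0.89 and *Iglv2* at 0.96, and without AAV-CTRL 1 they were at −0.35 and −0.96, so that the direction of both depended on which control pool was kept. *Iglc3* kept its direction but ran from 0.23 without AAV-CTRL 1 to 2.19 without AAV-CTRL 2, in fits that hold a single control pool. *Iglv3* was at −0.30 without AAV-mVEGF-C 1. Over the 7 genes, 6 were higher and 1 was lower with AAV-mVEGF-C, with a median log2 fold change of 0.92, against 0.0034 over all genes tested.

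**Figure D3:**
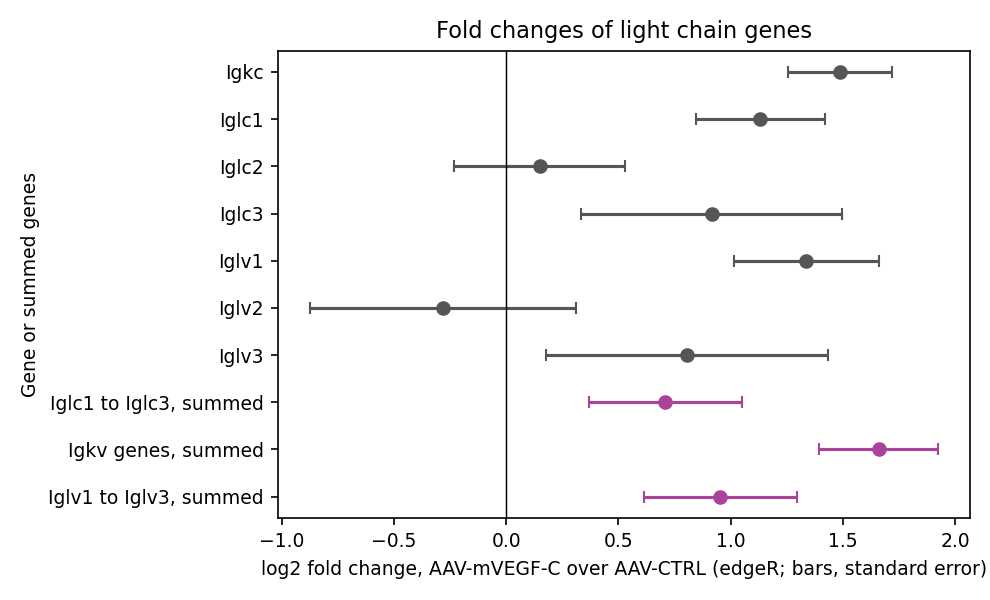
Log2 fold change of AAV-mVEGF-C over AAV-CTRL by edgeR, with bars for the standard error. Gray points are single genes, and purple points are summed reads of the *Iglc*, *Igkv*, and *Iglv* genes. *Igkc* is at 1.49 and the summed *Igkv* genes at 1.66, whereas the summed *Iglc* genes are at 0.71 and *Iglc2* and *Iglv2* lie within 1 standard error of 0.

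Summing reads before the fit removes the question of how reads were split between similar genes. The summed *Iglc1* to *Iglc3* reads had a log2 fold change of 0.71 (SE 0.34, edgeR unadjusted p = 0.0813), below the 1.49 of *Igkc*. The summed *Iglv1* to *Iglv3* reads were at 0.95 (SE 0.34, edgeR unadjusted p = 0.0301), and the summed *Igkv* reads at 1.66 (SE 0.27, edgeR unadjusted p = 0.000659). None of these sums passed the adjusted threshold, with edgeR adjusted p = 0.999 for each. The similar pair *Iglc2* and *Iglc3*, summed, was at 0.41 (SE 0.42). *Iglv2* with *Iglv3*, which are not similar in sequence but share *Iglc2* as the main partner, was at 0.08 (SE 0.53), and the similar pair *Iglv1* and *Iglv2* was summed only together with *Iglv3*.

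The kappa and lambda levels were next set against each other within each library, which cancels library size. Lambda constant RNA, the sum of *Iglc1*, *Iglc2*, and *Iglc3* in TPM, was 9.72% of *Igkc* in AAV-CTRL 1 and 13.2% in AAV-CTRL 2, against 6.09% in AAV-mVEGF-C 1 and 8.53% for AAV-mVEGF-C 2. Both treated pools lay below both controls, with AAV-mVEGF-C 2 close to AAV-CTRL 1. The means were 11.5 ± 2.45% and 7.31 ± 1.72% (SD, n = 2 pools each). On the log2 scale the ratio differed by −0.65, that is, the ratio with AAV-mVEGF-C was 0.636 of that in controls (two-sided exact permutation test, p = 0.333, which is the lowest p that 2 pools against 2 allow). With this permutation test, a threshold of 0.05 cannot be passed at any size of difference. Within the experiment numbers of the labels, the log2 difference was −0.68 for the pools numbered 1 and −0.63 for those numbered 2. With the pools crossed it was −0.19 and −1.12. The column names of the table number the pools otherwise, so the pairing remains uncertain, and the closeness of the same-numbered differences is given as a description.

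The variable genes gave a second reading of the same ratio from other reads. The sum of *Iglv1*, *Iglv2*, and *Iglv3* was 4.14% and 5.29% of the summed *Igkv* genes in AAV-CTRL 1 and 2, against 2.59% and 3.12% in AAV-mVEGF-C 1 and 2. The groups did not overlap here either, and the controls differed from each other more than the AAV-mVEGF-C pools did. The means were 4.71 ± 0.81% and 2.86 ± 0.38%, a log2 difference of −0.72 (a ratio of 0.608, exact permutation p = 0.333). By experiment number the differences were −0.68 and −0.76, against −0.41 and −1.03 when crossed. Constant and variable genes come from the same RNA and the same pools, so they are not independent replicates of each other.

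**Figure D4:**
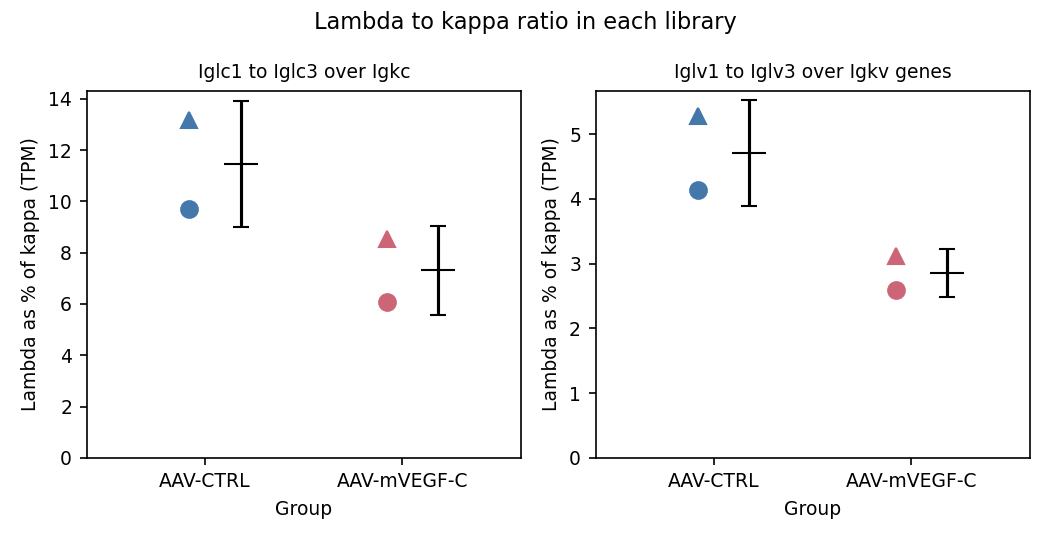
Lambda as a percent of kappa in TPM for each library, for constant genes at left and variable genes at right. Points are pools, with the shapes and colours of the plot of gene levels, and lines with bars are the mean and SD of 2 pools. The AAV-mVEGF-C pools are at 6.09% and 8.53% for constant genes and at 2.59% and 3.12% for variable genes, below both controls in each panel.

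The same order was found in the reads. Lambda made up 8.05% of light chain constant reads in AAV-CTRL 1 (95% Wilson interval, 7.78 to 8.33%) and 10.7% in AAV-CTRL 2 (10.4 to 10.9%). The shares were 5.03% (4.91 to 5.16%) in AAV-mVEGF-C 1, and 6.66% for AAV-mVEGF-C 2 (6.50 to 6.82%). These intervals cover counting error only, and reads copied by PCR are not independent molecules. No pair of the 4 intervals overlapped, so pools of the same group differed by more than counting error. For variable genes, lambda reads were 4.36% and 5.28% of light chain variable reads in the controls and 2.78% and 3.38% with AAV-mVEGF-C.

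The levels on each side of the ratio were read next. Summed lambda constant RNA was 165 and 335 TPM in AAV-CTRL 1 and 2, against 307 and 435 TPM in AAV-mVEGF-C 1 and 2, a fold of 1.48 between means with overlapping groups. In CPM the same sum was 68.5 and 139 in the controls, below the 146 and 192 of the AAV-mVEGF-C pools, so that the overlap was found in TPM and not in CPM. *Igkc* had a fold of 2.40 in TPM and did not overlap on either scale. Of the difference in light chain constant TPM between the group means, 2954 TPM (96.1%) was *Igkc* and 121 TPM (3.94%) was lambda. The lambda part depended on single pools, at 35.9 TPM (1.40%) without AAV-CTRL 1, 206 TPM (5.76%) without AAV-CTRL 2, 185 TPM (5.84%) without AAV-mVEGF-C 1, and 57.1 TPM (1.92%) without AAV-mVEGF-C 2. The lambda variable genes summed to 68.7, 138, 142, and 183 TPM in the same order of libraries, a fold of 1.57, whereas the *Igkv* genes summed to 1660, 2616, 5485, and 5869 TPM, a fold of 2.65. A lower lambda to kappa ratio thus stood beside lambda means that were higher, not lower, with AAV-mVEGF-C.

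Each lambda constant gene was also set against *Igkc* on its own. *Iglc2* was 2.97% and 5.12% of *Igkc* in the controls and 1.93% and 1.58% with AAV-mVEGF-C, without overlap. *Iglc1* was 5.38% and 4.65% in the controls and 2.79% and 4.86% with AAV-mVEGF-C, so the groups overlapped through AAV-mVEGF-C 2. *Iglc3* was 1.37% and 3.42% in the controls and 1.37% and 2.09% with AAV-mVEGF-C, also with overlap. On the log2 scale, *Iglc1* alone over *Igkc* differed by −0.44 (exact permutation p = 0.667), and *Iglc2* with *Iglc3* over *Igkc* by −0.81 (exact permutation p = 0.333). *Iglv1* alone over the *Igkv* genes differed by −0.37, a smaller difference than that of the 3 *Iglv* genes together.

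1 kappa variable gene weighed on the variable ratio. *Igkv13-84* had 186 and 11.3 reads in AAV-CTRL 1 and 2, 503 reads in AAV-mVEGF-C 1, and 9312 reads in AAV-mVEGF-C 2, where it made up 20.6% of all *Igkv* TPM. Its share in the other libraries was at most 1.24%. Without it, a step chosen after the data had been seen, the lambda variable genes were 4.19% and 5.29% of the remaining *Igkv* genes in controls and 2.61% and 3.94% with AAV-mVEGF-C. The groups remained apart, and the log2 difference was −0.55.

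The make-up of the lambda signal varied between pools of the same group. *Iglc1* was 55.3% and 35.3% of lambda constant TPM in AAV-CTRL 1 and 2, against 45.8% and 57.0% in AAV-mVEGF-C 1 and 2. The means differed by 6.08 percentage points with overlapping groups (exact permutation p = 0.667), and by −3.94 points without AAV-CTRL 2, so that no direction held. *Iglc2* was 30.6%, 38.8%, 31.8%, and 18.6% in the same order, and *Iglc3* was 14.1%, 25.9%, 22.4%, and 24.5%. AAV-CTRL 2 had the largest share of *Iglc2* and AAV-mVEGF-C 2 the smallest.

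Among the variable genes, *Iglv1* was 66.0% and 52.7% of lambda variable TPM in the controls, and 67.4% and 84.0% with AAV-mVEGF-C. Both treated pools were above both controls, but AAV-mVEGF-C 1 exceeded AAV-CTRL 1 by little, and the difference of 16.3 percentage points (exact permutation p = 0.333) was close to the gap between the AAV-mVEGF-C pools themselves. *Iglv2* was 21.5% and 38.1% in the controls, against 16.6% and 12.1% with AAV-mVEGF-C. *Iglv3* was 12.5% and 9.13% in the controls, and 16.01% and 3.96% with AAV-mVEGF-C, the widest spread within a group relative to its level.

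**Figure D5:**
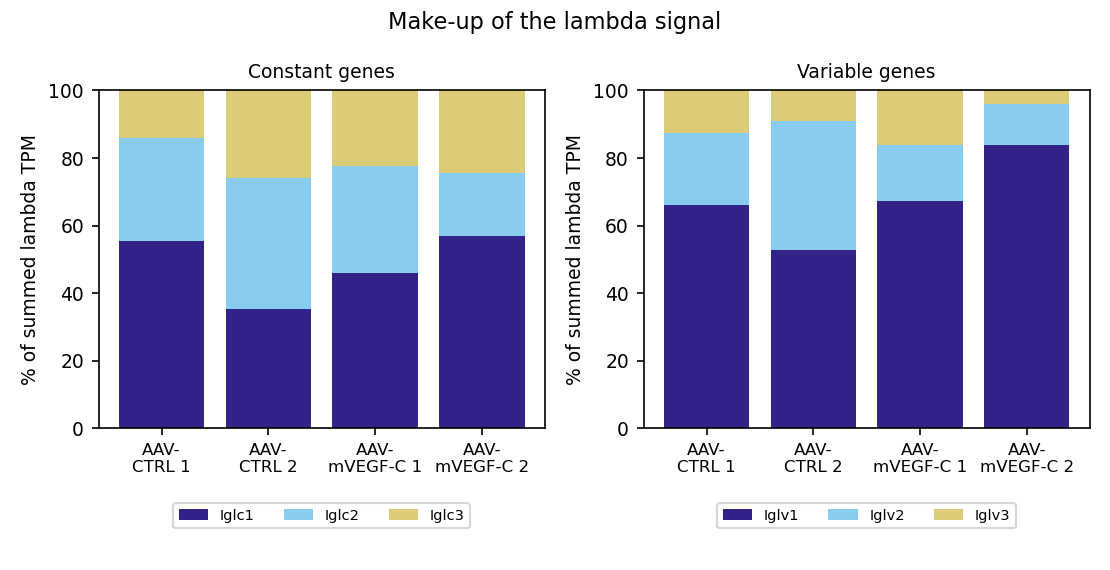
Make-up of the lambda signal in each library, as percent of the summed TPM of the constant genes at left and of the variable genes at right. *Iglc1* takes 35.3% to 57.0% of the constant signal with overlapping groups, and *Iglv1* takes 52.7% to 84.0% of the variable signal.

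The variable and constant genes that recombine with each other were compared as a check of the values. *Iglv1* was 39.7% and 35.6% of *Iglc1* plus *Iglc3* in the controls, and 45.7% and 43.5% with AAV-mVEGF-C. *Iglv2* plus *Iglv3* was 46.4% and 50.3% of *Iglc2* in the controls, and 47.5% and 36.4% with AAV-mVEGF-C. These ratios varied far less between libraries than the levels of the genes did. For kappa, the summed *Igkv* genes were 0.98 and 1.03 times *Igkc* in the controls, and 1.09 and 1.15 times *Igkc* with AAV-mVEGF-C. The level of variable relative to constant TPM was thus lower for lambda than for kappa in all 4 libraries. Whether rearranged reads were assigned equally well to both kinds of gene was not tested.

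Likeness of pattern was measured as the mean absolute difference in centered log2(CPM + 1) over the 4 libraries, where 0 is an identical pattern on that scale. Adding 1 CPM shrinks the differences of genes near or below that level, so a near match does not mean an equal fold change. Among the 7 genes, *Iglc1* was nearest to *Iglv1* (0.13) and *Iglc2* to *Iglv2* (0.18), the pairs that recombine. *Igkc* was also nearest to *Iglv1* (0.21). Outside the 7 genes, the nearest to *Igkc* were *Ighv1-62-3* (0.05), *Ighj4* (0.08), *Ighv1-5* (0.11), *Snora81* (0.13), and *Ighv7-3* (0.14), of which 4 are heavy chain gene segments and *Snora81* is a small nucleolar RNA. *Ighv1-62-3*, *Ighj4*, and *Ighv1-5* were at or below 2.71 CPM in every library, with log2 fold changes of 3.44, 3.41, and 2.76, unlike the 1.49 of *Igkc*. *Snora81*, at 17.9 to 73.5 CPM, and *Ighv7-3*, at 2.42 to 12.7 CPM, had log2 fold changes of 1.498 and 1.56. The nearest to *Iglc1* were *Oosp1*, *Il22*, *Ighv4-1*, *Gm50241*, and *Ckm*, at 0.12 to 0.16, of which *Ighv4-1* is the immunoglobulin gene. *Ighv4-1* was at 25.5 to 61.5 CPM with a log2 fold change of 0.87, whereas the other 4 were at or below 2.24 CPM, with log2 fold changes of 2.17 to 2.86 against 1.13 for *Iglc1*. The nearest to *Iglc2* were *4930412F12Rik*, *Ndufaf1*, *Prrg4*, *Cacna1f*, and *Spag1*, at 0.01 to 0.02. The nearest to *Iglc3* were *Gm5616*, *Gm49774*, *2900060B14Rik*, *Mt2*, and *Rpl23a-ps3*, at 0.06 to 0.11. Both sets were nearer to their gene than any other light chain gene was. These include no immunoglobulin gene, and those nearest to *Iglc2* were all at or below 4.71 CPM. With 4 libraries, such matches among 19806 genes are a description of these pools.

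Of the 160 *Igkv* genes in the table, 76 passed the filter, 64 of them higher and 12 lower with AAV-mVEGF-C, with a median log2 fold change of 2.04. At an unadjusted edgeR p under 0.05, 36 were higher and 1 was lower, against 1.46% and 1.18% of all genes tested, and 0 passed the adjusted threshold. DESeq2 gave 26 of them an adjusted p under 0.05, all higher, against 0.315% of all genes. The 3 with the highest mean TPM were *Igkv13-84* (log2 fold change 6.05, SE 1.70), *Igkv19-93* (1.99, SE 0.42), and *Igkv15-103* (4.31, SE 0.54). By DESeq2 the adjusted p was 0.41 for *Igkv13-84*, 0.000131 for *Igkv19-93*, and 1.07e-19 for *Igkv15-103*. *Igkv15-103* was at 22.8 TPM in both controls, and at 189 and 575 TPM in AAV-mVEGF-C 1 and 2. A gene that passed the filter only through its AAV-mVEGF-C reads had to be higher there, so these counts are a description. The kappa joining genes had few reads, with at most 22 for *Igkj2* in AAV-mVEGF-C 1, and *Iglj1* to *Iglj4* and *Iglc4*, the remaining lambda constant gene of the annotation, were listed at 0 in all 4 libraries.

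The heavy chain constant genes, whose products pair with these light chains, summed to 938 and 1765 TPM in AAV-CTRL 1 and 2, and to 3740 and 3938 TPM in AAV-mVEGF-C 1 and 2. Of the 7 that passed the filter, 6 were higher and 1 lower with AAV-mVEGF-C, 4 of the higher ones with an unadjusted edgeR p under 0.05 (1.46% of all genes) and 0 with an adjusted one, and the median log2 fold change was 2.03. That median was the value of *Ighg3* (SE 2.04), at 0.0224 and 274 CPM in the controls and at 436 and 682 CPM with AAV-mVEGF-C. *Ighg1* was at 77.5 and 0.233 CPM in the controls and at 865 and 1472 CPM with AAV-mVEGF-C. Each of these genes was thus near 0 in 1 control pool. DESeq2 gave *Igha* and *Ighg2b*, the constant region of IgG2b, adjusted p of 7.65e-15 and 0.00963, both higher (0.315% of all genes). *Igha*, the constant region of IgA, was at 437 and 473 CPM in the controls and at 1146 and 1217 CPM with AAV-mVEGF-C (log2 fold change 1.38, SE 0.16). *Ighm*, the constant region of IgM, was at 811 and 2090 CPM in the controls and at 1949 and 2168 CPM with AAV-mVEGF-C, with overlap. Light chain constant TPM was 1.98 and 1.63 times heavy chain constant TPM in the controls, and 1.43 and 1.41 times with AAV-mVEGF-C, a log2 difference of −0.34 (exact permutation p = 0.333). In reads, which are not scaled for length, the difference was −0.078 with overlapping groups (exact permutation p = 1), so it depended on the unit. Lambda constant TPM was 17.5% and 19.0% of heavy chain constant TPM in the controls, and 8.21% and 11.04% with AAV-mVEGF-C.

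Markers of antibody-secreting cells and of B cells differed in their pattern. The 8 antibody-secreting cell genes were all higher in both AAV-mVEGF-C pools than in both controls (16.8% of all genes), with a median log2 fold change of 1.04. At an unadjusted edgeR p under 0.05 there were 3 (1.46% of all genes), and 0 passed the adjusted threshold. DESeq2 gave 1 of the 8, *Jchain*, an adjusted p under 0.05 (7.65e-15), against 0.315% of all genes. *Jchain*, which links IgA and IgM into polymers, was at 261 and 269 CPM in the controls and at 672 and 680 CPM with AAV-mVEGF-C (log2 fold change 1.35, SE 0.16). *Prdm1*, a transcription factor of plasma cell fate, was at 26.5 and 29.9 CPM in the controls and at 49.4 and 38.3 CPM with AAV-mVEGF-C. Of the 8 B cell genes, 1 was higher and 7 were lower, with a median of −0.51, and *Ms4a1*, which encodes CD20, was at 52.8 and 108 CPM in the controls, against 47.0 and 43.8 CPM with AAV-mVEGF-C (log2 fold change −0.82, SE 0.33). The 4 B cell markers summed to 81.3 and 218 TPM in AAV-CTRL 1 and 2, and to 73.0 and 86.6 TPM with AAV-mVEGF-C, so that AAV-CTRL 2 stood apart. AAV-CTRL 2 was also the library with the highest *Iglc2*, *Iglv2*, and lambda to kappa ratio, and the part of B cell content in that ratio was not tested.

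Set against *Jchain* in TPM, *Igkc* was 10.3 and 13.6 times as high in the controls and 12.5 and 12.3 times as high with AAV-mVEGF-C, so the groups overlapped. Lambda constant RNA was 1.002 and 1.80 times *Jchain* in the controls, and 0.758 and 1.05 times *Jchain* with AAV-mVEGF-C, also with overlap. Set against the 4 B cell markers, *Igkc* was 20.8 and 11.6 times as high in the controls and 69.1 and 58.9 times as high with AAV-mVEGF-C. Lambda was 2.02 and 1.53 times the B cell markers in the controls, and 4.203 and 5.02 times with AAV-mVEGF-C. Relative to B cell markers both chain types were thus higher in the treated pools, without overlap, whereas relative to *Jchain* the groups overlapped for both.

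Genes that act on the light chain loci were read from 3 further lists. Of the 10 V(D)J recombination genes, 3 were higher and 7 lower with AAV-mVEGF-C, 2 of the lower ones with an unadjusted edgeR p under 0.05 (1.18% of all genes) and 0 with an adjusted one, and the median log2 fold change was −0.51. *Rag1*, a subunit of the recombinase, was at 14.7 and 43.1 CPM in the controls and at 2.97 and 8.52 CPM with AAV-mVEGF-C (log2 fold change −2.33, SE 0.67). It was the 1 gene of this list with a DESeq2 adjusted p under 0.05 (0.0181), against 0.063% of all genes that DESeq2 called lower. *Rag2*, its partner, was at 3.67 and 1.89 CPM in the controls and at 0.51 and 1.29 CPM with AAV-mVEGF-C (edgeR unadjusted p = 0.0557). The other lower gene with an unadjusted edgeR p under 0.05 was *Xrcc6*, at 34.5 and 34.0 CPM in the controls. With AAV-mVEGF-C it was at 22.0 and 26.4 CPM. Both treated pools were below both controls for *Rag1* and *Rag2*, and for 6 of the 10 genes in all, against 15.2% of all genes tested. The opposite pattern was seen in 1 of the 10, against 16.8% of all genes tested. Of the 13 transcription factors known to act at the light chain loci, 6 were higher and 7 lower, with a median of −0.08. *Ebf1*, a factor of early B cells, was the 1 gene of these 13 with an unadjusted edgeR p under 0.05 (1.18% of all genes were called lower). It was at 37.2 and 74.7 CPM in the controls and 31.9 and 27.6 CPM with AAV-mVEGF-C, with a DESeq2 adjusted p of 0.732. In edgeR, 0 of the 13 passed the adjusted threshold. *Irf4*, which acts on light chain enhancers, was at 69.2 and 127 CPM in the controls and at 85.8 and 87.5 CPM with AAV-mVEGF-C.

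The surrogate light chain, which pairs with the heavy chain in pre-B cells before a true light chain is made, is encoded by *Vpreb1*, *Vpreb2*, and the lambda-like gene *Igll1*. The level of *Igll1* in CPM was 0.246 in AAV-CTRL 1 and 4.13 in AAV-CTRL 2, against 0.768 and 1.96 CPM in AAV-mVEGF-C 1 and 2. *Vpreb1* was listed at 0 in AAV-CTRL 1, was at 2.12 CPM in AAV-CTRL 2, and at 0.282 and 1.26 CPM in the AAV-mVEGF-C pools. *Vpreb3*, a related gene expressed in B cell precursors, was at 1.68 and 16.6 CPM in the controls and at 2.56 and 5.14 CPM with AAV-mVEGF-C. In all 3 genes AAV-CTRL 2 was the highest library and AAV-CTRL 1 the lowest, as for *Iglc2* and *Iglv2*, and the groups overlapped. The 3 that passed the filter had log2 fold changes of −1.25 to −0.46, none with an unadjusted edgeR p under 0.05.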

How the data were processed

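RNA of CD45+ cells sorted from dura was sequenced for AAV-CTRL and AAV-mVEGF-C mice as 2 libraries per group, each a pool of 10 to 12 mice, with a stranded total RNA kit for picogram inputs. The authors deposited estimated counts per gene, without normalization (8.18% of values had decimals, and all were rounded for testing), and the authors also deposited TPM values, scaled for gene length, for the same 55401 genes. The submitters' processing notes name FastQC, Trimmomatic, DRAGEN, Picard, and the build mm10, and the annotation is not given in the sources used here. Coordinates and sequences are from GRCm38 with GENCODE M21, in which 54349 identifiers occur with the same version.

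The main test was edgeR 4.0.16 in R 4.3.3 (quasi-likelihood, TMM scaling, filterByExpr and glmQLFit at their defaults, no covariate, 19806 genes, common dispersion 0.173, Benjamini-Hochberg threshold 0.05). The standard error is the log2 fold change divided by the square root of F. Ratios were computed per library and tested by exact permutation (two-sided) over pools, in which the smallest p is 0.333. Shares of reads have 95% Wilson intervals. Depth was 32520709 to 46409700 assigned reads. The scripts were tested on simulated data.

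The genes named are the light chain genes, the lists of joining, surrogate light chain, recombination, transcription factor, heavy chain, B cell, and antibody-secreting cell genes, the 3 *Igkv* genes of highest mean TPM, and the 5 genes nearest in pattern to *Igkc* and to each *Iglc* gene. Members and lists were chosen with earlier results of these data known. The alternatives were DESeq2 1.42.0, the tool named in the paper, limma 3.58.1 on log2(TPM + 1) and log2(TPM + 0.1), RLE scaling, library sizes without immunoglobulin genes, 2 other filters, a replicate block, a crossed replicate block, *Iglc2* with *Iglc3* and *Iglv2* with *Iglv3* summed, counts in place of TPM, and each library left out in turn. The labels number the pools by experiment, but the column names number them otherwise. Deviations of same-numbered pools correlated at r = −0.134 across genes, so pairing is not settled, and differences by number are given beside the main ones for the ratio.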

Additional observations from a re-analysis of the deposited data

How the results depend on the processing

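The count of genes with an adjusted p under 0.05 was 0 in edgeR and stayed at 0 with RLE scaling, with library sizes without immunoglobulin genes, with a minimum of 10 reads in every library, and in limma on TPM with either pseudocount. It was 72 with DESeq2, 268 with no filter on low counts, 11 with the replicate block, 54 with the crossed replicate block, and 2 to 2058 with a library left out, the highest without AAV-CTRL 2, 412 without AAV-CTRL 1, and 65 without AAV-mVEGF-C 2. *Igkc* kept its direction in 13 of 13 alternatives and had an adjusted p under 0.05 in 6 of them (DESeq2, no filter, the crossed replicate block, and the fits without AAV-CTRL 1, without AAV-CTRL 2, and without AAV-mVEGF-C 2), with log2 fold changes of 1.21 to 1.81 when a library was left out and 1.52 with the replicate block (edgeR adjusted p = 0.154). *Iglc1* (0.72 to 1.47) and *Iglv1* (1.003 to 1.76) kept their direction too, and each passed the threshold in 4 alternatives. *Iglc3* passed it in 2 (edgeR adjusted p = 0.0225 with no filter and 0.000168 without AAV-CTRL 2) and *Iglc2* in 1 (edgeR adjusted p = 0.0108 without AAV-CTRL 2). The direction reversed for *Iglc2* (−0.35 to 0.89), *Iglv2* (−0.96 to 0.96), and *Iglv3* (−0.30 to 1.43) when a library was left out, and *Iglc3* ran from 0.23 to 2.19. The median of the 7 genes ran from 0.51 to 1.35. The lambda to kappa ratio kept its direction with a library left out, with reads in place of TPM, and with other sums of genes, at −0.90 to −0.41 (constant) and −0.89 to −0.54 (variable) with a library left out. In 2 pools against 2, a replicate block cannot alter the size of this difference, so it is no test of the ratio. With *Iglv1* alone the variable ratio was −0.37, and with reads in place of TPM the light to heavy ratio was −0.078. With a library left out, the light to heavy ratio ran from −0.48 to −0.20, the *Iglc1* share from −3.94 to 16.1 points, reversing without AAV-CTRL 2, and the *Iglv1* share from 7.99 to 24.6 points. Where a library was left out, its partner was assumed to vary like the other group. The cause of these differences was not tested.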
